A study of Homo sapiens with 3 samples.

Results

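The 85 genes for the proteins of the cytoplasmic ribosome were examined in induced melanocytes, out of the 36601 genes of the count tables. Members were the rows whose symbol is RPL or RPS with a number and, where present, an A, L or X ending or the ending of a paralog (a related copy of the gene), together with RPLP0, RPLP1, RPLP2 and RPSA. Pseudogenes, the RPS6K kinases, Y-linked genes and 1 readthrough row were left out, which gave 53 genes of the large subunit and 32 of the small subunit. The rule used names alone and no measured value. The cells were induced melanocytes grown from human pluripotent stem cells through embryoid bodies in medium with Wnt3a, SCF and endothelin-3, and they were profiled as droplet libraries at day 23 (D23), day 32 (D32) and day 44 (D44), with 1 library per day. No genotype or treatment is given that set the 3 libraries apart, but the protocol itself changes with time. Its medium first holds the phorbol ester TPA with the bodies in suspension. Later the cells are plated and passaged, in medium with serum and without TPA, so culture stage goes with day. The question set to the genes here was how much of the transcriptome they made up and in what proportions. The labels conflict on the starting cells, with induced pluripotent stem cells in the titles and the H9 embryonic stem cell line in the source and cell line fields. The study's methods put D32 and D44 in the same induction and sequencing batch and D23 outside it. Day, culture stage, induction and batch therefore cannot be told apart between D23 and the later libraries.

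A ribosome is built from ribosomal RNA and a fixed set of proteins, most of them in a single copy, so cells make these proteins in near-equal numbers. Their mRNAs are short, abundant and stable, and most begin with a cytosine followed by a run of pyrimidines, the 5′ terminal oligopyrimidine (TOP) tract, through which mTORC1 controls their translation together. The genes are scattered over the chromosomes and have many processed pseudogenes, and a few have paralogs that can take the same place in the ribosome.

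The start sequences are shown because many members share a run of pyrimidines there, and because the paralogs differ in whether they hold it. RefSeq sequences on GRCh38.p14 were found for 68 of the 85 members. Each line covers the 10 bases before the annotated start and the first 20 bases of the first exon, 5′ to 3′ on the strand of the gene. Capitals mark a run of pyrimidines that opens with a C at the annotated start. RPS12, RPLP1 and RPL24 are shown for their differences between cell classes, RPL39, RPL38 and RPL3 for their differences between libraries, and the other lines are paralogs below the gene they are named after.
RPS12, chr6:132814559-132814588, plus strand: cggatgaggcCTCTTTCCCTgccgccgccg
RPLP1, chr15:69452808-69452837, plus strand: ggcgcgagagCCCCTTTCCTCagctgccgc
RPL24, chr3:101686699-101686728, minus strand: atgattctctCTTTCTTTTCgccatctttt
RPL39, chrX:119791611-119791640, minus strand: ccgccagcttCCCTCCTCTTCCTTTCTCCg
RPL38, chr17:74203668-74203697, plus strand: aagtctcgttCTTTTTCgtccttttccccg
RPL3, chr22:39319604-39319633, minus strand: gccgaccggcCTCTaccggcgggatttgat
RPL22, chr1:6199576-6199605, minus strand: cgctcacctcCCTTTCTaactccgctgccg
RPL22L1, chr3:170870176-170870205, minus strand: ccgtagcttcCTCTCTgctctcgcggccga
RPL36A, chrX:101391001-101391030, plus strand: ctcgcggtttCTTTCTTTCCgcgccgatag
RPL36AL, chr14:49620607-49620636, minus strand: tcttccctttCCTgttaggcgagagctgcg
RPS27, chr1:153990752-153990781, plus strand: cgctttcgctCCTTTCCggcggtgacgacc
RPS27L, chr15:63157458-63157487, minus strand: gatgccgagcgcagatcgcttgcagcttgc
RPL26, chr17:8383174-8383203, minus strand: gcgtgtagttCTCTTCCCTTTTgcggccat
RPL26L1, chr5:172958719-172958748, plus strand: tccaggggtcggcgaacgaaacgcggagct
A run of at least 5 bases that opened with C stood at an annotated start of 47 of the 68 members (69.1%) and of 5.14% of the 27305 genes in the same table. The letters CTTTC, read on the sense strand of these 30 bases, were in the windows of 50.0% of members and 5.29% of all genes, and CTTTT in 23.5% and 4.55%. Either was in 70.6% of members and 9.42% of all genes, and both were in 2 members. On the opposite strand the same letters were in 2.94% and 1.47% of members and in 4.00% and 3.03% of all genes. RPL22L1 holds the run, RPL36AL holds only its first 3 bases, and RPS27L and RPL26L1 hold none at their annotated start. Lack of the run is not particular to paralogs. RPL3 holds 4 bases, and RPS28, RPS29, RPS4X, RPL4, RPL9 and RPL19 hold none. The search was made after the counts had been seen and is a description of these windows.

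Counts were sums of unique molecular identifiers (UMIs), each of which stands for a captured RNA molecule. After the study's filter on genes, UMIs and mitochondrial share, 15629 of 22522 barcodes were kept, with 3795, 6023 and 5811 cells and median depths of 12574, 36375 and 42940 UMIs in D23, D32 and D44. Cells were sorted into classes by marker genes: melanocyte-like (PMEL, MLANA, DCT, TYR, TYRP1, MITF, TRPM1 and SLC24A5), mesenchymal-like (collagens, LUM and PLAU) and neural-like. The neural-like markers were NEFM, ZIC1, ZIC2, MSX1, MSX2, CDH2, NCAM1, MAP2, CRABP1, DCX and POU3F2. A class needed at least 10 marker UMIs per 10000, a limit set after the distribution of the scores was seen. Melanocyte-like cells numbered 2369, 5514 and 5749 in the 3 libraries, mesenchymal-like cells 444, 237 and 18, and neural-like cells 744, 143 and 3. The 3 neural-like cells of D44 were too few for a sum, which left 8 sums of library and class. All 8 melanocyte markers were above 10 UMIs per 1000000 (CPM) in each melanocyte-like sum, adding to 4176, 10383 and 12216 CPM, against 80.3 to 192 CPM in the other classes. The classes are not pure: neural-like sums held all or all but 1 of the 7 mesenchymal markers above 10 CPM, at 1508 to 2221 CPM in all. Mesenchymal-like sums held 7 to 10 of the 11 neural markers at 10 CPM or more, at 650 to 1425 CPM in all. CRABP1 made up most of the neural markers in neural-like cells, with 7240 of 12364 CPM in D23 and 5276 of 7259 CPM in D32. In D32 CDH2 was higher in mesenchymal-like (152 CPM) than in neural-like cells (119 CPM), while the other neural markers were higher in neural-like cells. Pluripotency markers were below 0.5 CPM in melanocyte-like cells save DPPA4 at 35.4 to 63.8 CPM, and epithelial and red cell markers were each under 10 CPM in every sum. Libraries shared 9 to 28 cell barcodes in pairs. The 170, 430 and 372 cells called doublets were those with the highest doublet scores, in numbers set by an expected rate, and they were kept.

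Ribosomal protein genes made up close to 1 in 5 UMIs. In melanocyte-like cells their share was 19.9% in D23, 17.3% in D32 and 19.8% in D44. In mesenchymal-like cells it was 20.1%, 16.5% and 17.0%, and in neural-like cells 21.0% in D23 and 14.9% in D32. D32 was thus the lowest library in each class, and its neural-like cells had the lowest share of the 8 sums. The means over libraries were 19.0% ± 1.46 (SD, n = 3), 17.9% ± 1.99 (SD, n = 3) and 17.9% ± 4.32 (SD, n = 2), so that the spread between libraries exceeded the difference between the class means. The exact binomial intervals (95%) were under 0.2 percentage points wide and cover counting error only.

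**Figure D1:**
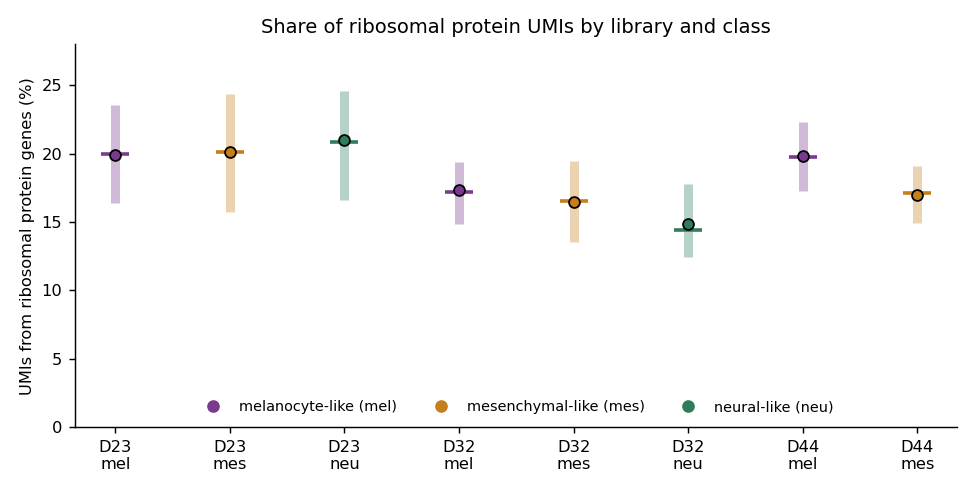
Share of UMIs from the 85 ribosomal protein genes (y axis, percent) in the 8 sums of library and class (x axis). Points are the share in the summed UMIs, horizontal dashes the median over cells, and pale bars run from the lowest to the highest decile of cells. The 3 classes of D23 lie between 19.9% and 21.0%, and those of D32 run from 17.3% in melanocyte-like to 14.9% in neural-like cells.

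The order of the classes differed between libraries. Melanocyte-like minus mesenchymal-like shares were -0.231 percentage points in D23, 0.837 in D32 and 2.86 in D44, with a mean of 1.15 ± 1.57 (SD, n = 3) and p = 0.5 in an exact two-sided permutation test, in which 3 libraries cannot go below 0.25. Melanocyte-like minus neural-like shares were -1.09 in D23 and 2.45 in D32, with p = 1 in the same exact test and 0.5 the smallest p that 2 libraries allow. The 3 differences of D23 between classes turned round under a stricter gate (at least 20 own and under 5 other marker UMIs per 10000). Melanocyte-like cells were then 0.504 points above mesenchymal-like and 1.76 above neural-like cells, and mesenchymal-like cells were 1.26 above neural-like cells. In D23 the 275 cells that passed only the neural limit had a median share of 19.2% at a median of 6437 UMIs. The 634 cells that passed the mesenchymal limit as well, which were split between the classes by the larger score, had 21.4% at 14570 UMIs. The part of depth and of mixed identity in this difference was not tested.

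Single cells of a class varied more than the classes did. The lowest and highest deciles of melanocyte-like cells were 16.4% and 23.6% in D23, 14.9% and 19.4% in D32 and 17.3% and 22.3% in D44. When melanocyte-like cells were split into 3 equal groups by their summed melanocyte markers, the median share went from 19.6% over 20.0% to 20.3% in D23, from 16.6% over 17.2% to 17.7% in D32 and from 19.1% over 20.0% to 20.3% in D44. The share was thus higher with a higher marker score in each library, by under 1.2 points. Split by UMIs per cell, the medians lay between 19.4% and 20.3% in D23, 16.7% and 17.5% in D32 and 19.7% and 19.8% in D44, in no common order. These medians are descriptions over cells, which are not replicates.

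Gene by gene, few members differed between classes. The sums were fitted in edgeR over the 14870 genes that passed its filter, with the library as a block and its quasi-likelihood test, scaled by TMM (trimmed mean of M values, which sets most genes to no change), and called at a Benjamini-Hochberg adjusted p under 0.05 over all genes. Of the 83 members that passed the filter on low counts, RPS12 alone was called higher in melanocyte-like than in mesenchymal-like cells and no member was called lower. Over all genes 22.6% were called in this comparison, 10.3% as higher and 12.3% as lower. Against neural-like cells RPS12, RPLP1 and RPL36AL were called higher and no member lower, with 22.3% of all genes called, 9.54% as higher and 12.7% as lower. Between mesenchymal-like and neural-like cells edgeR and DESeq2 called no member. RPL28 alone had an unadjusted p under 0.05 in edgeR, and 0.316% of all genes were called, 0.0874% as higher and 0.229% as lower. The members' median log2 difference was 0.20 against mesenchymal-like cells, with 77 of 83 above 0, where the median of all genes was 0.08. Against neural-like cells it was 0.24, with 81 of 83 above 0, where the median of all genes was again 0.08. The libraries differed in this. In CPM, before TMM, 43 of 83 members were higher in melanocyte-like than in mesenchymal-like cells in D23, 53 in D32 and 77 in D44, and against neural-like cells 25 were higher in D23 and 78 in D32. No test was made of the members as a group, and the shares of all genes above 0 or higher in CPM are not given here. Without D44, whose mesenchymal-like sum held 18 cells, the first median was 0.03.

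RPS12, a protein of the small subunit that is known in flies for its part in cell competition, was the member that set the classes apart most. Its gene lies at chr6:132814569-132817564 on the plus strand, and its start is the first of the sequences above. In melanocyte-like cells of the 3 libraries, taken here and below from the earliest to the latest, it stood at 6148, 5933 and 7352 CPM. In mesenchymal-like cells it stood at 5108, 3483 and 3977 CPM, and in neural-like cells at 4731 CPM in D23 and 3088 in D32. Melanocyte-like cells were the highest in every library, and their range did not overlap with that of either other class. The log2 difference was 0.74 ± 0.20 (SE, n = 3 libraries) against mesenchymal-like cells, with an adjusted p of 0.0371 in edgeR's quasi-likelihood test. Against neural-like cells it was 0.88 ± 0.24 (SE) with an adjusted p of 0.0387 in the same test. Both calls were lost without D32, at log2 differences of 0.74 and 0.68 (adjusted p = 0.171 and 0.487 in edgeR), and without D44, at 0.53 and 0.78 (adjusted p = 0.160 and 0.0550 in edgeR), and the first was lost under the stricter gate (log2 difference 0.48, adjusted p = 0.150).

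To ask whether a member changed its proportion to the other members, the fit was repeated with the summed ribosomal protein UMIs as the library size. This moved the median log2 difference of all genes to -0.05 against mesenchymal-like and -0.14 against neural-like cells. RPS12 took 3.09%, 3.42% and 3.71% of the ribosomal protein UMIs in melanocyte-like cells of the 3 libraries, and 2.08% to 2.54% in the 5 sums of the other classes. Its share was therefore above every other sum in each melanocyte-like sum, with a log2 difference of 0.55 ± 0.11 (SE, adjusted p = 0.00806, edgeR) against mesenchymal-like and 0.62 ± 0.13 (SE, adjusted p = 0.00967, edgeR) against neural-like cells. It was the only member called against mesenchymal-like cells on this scale, where 19.2% of all genes were called, 6.40% as higher and 12.8% as lower. Against neural-like cells RPS12 was called higher and RPL24 lower, where 20.0% of all genes were called, 5.47% as higher and 14.6% as lower. Between mesenchymal-like and neural-like cells no member was called in edgeR on this scale, with RPL28 at an unadjusted p of 0.0326, where 0.720% of all genes were called, 0.168% as higher and 0.551% as lower. Without D32 both calls of RPS12 on this scale were lost, at log2 differences of 0.47 and 0.55 with adjusted p of 0.0755 and 0.155 in edgeR, and under the stricter gate the first was lost at 0.143. RPL24, a late-joining protein of the large subunit, took 1.02%, 0.885% and 0.815% in melanocyte-like cells, 1.13%, 1.03% and 0.968% in mesenchymal-like cells and 1.34% and 1.18% in neural-like cells. It was the lowest in melanocyte-like cells of each library, at a log2 difference of -0.41 ± 0.12 (SE, adjusted p = 0.0448, edgeR) against neural-like cells. That call was lost when any of the 3 libraries was left out, at log2 differences from -0.42 to -0.40 and adjusted p in edgeR from 0.0652 to 0.447.

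**Figure D2:**
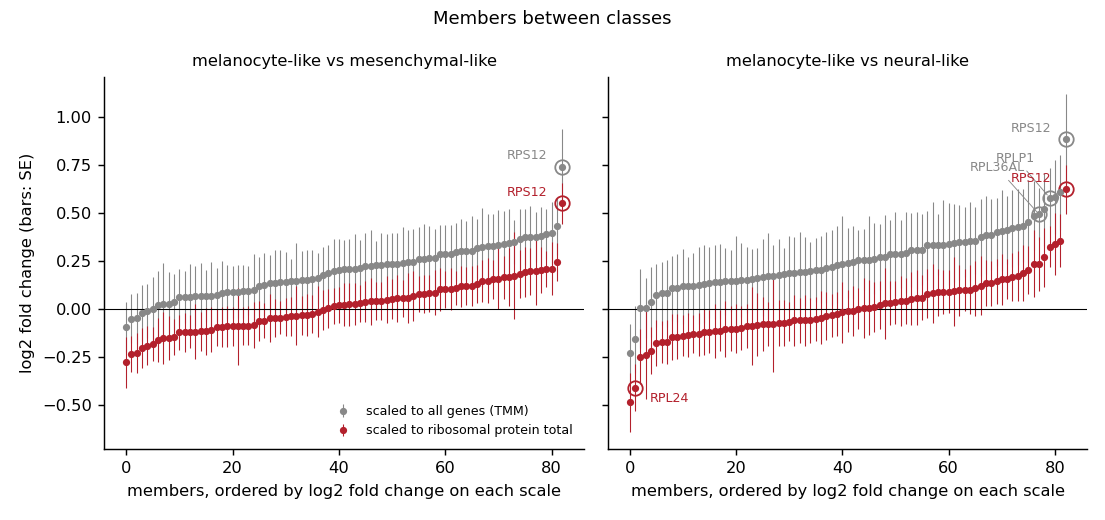
log2 fold change (y axis) of the 83 tested members in melanocyte-like against mesenchymal-like (left) and neural-like cells (right), each ordered by its own value along the x axis, with SE as bars. Grey points are scaled to all genes and red points to the ribosomal protein total, and rings mark the members with an adjusted p under 0.05 in edgeR. RPS12 stands apart at the upper end in both panels, at 0.55 and 0.62 in red.

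RPLP1 belongs with RPLP0 and RPLP2 to the stalk of the large subunit, which recruits elongation factors. RPLP1 stood at 7068, 5164 and 5934 CPM in melanocyte-like cells, at 6080, 4044 and 4719 CPM in mesenchymal-like cells and at 5638 and 3618 CPM in neural-like cells. Melanocyte-like cells were the highest in each library, while the ranges of the classes overlapped. The log2 difference against neural-like cells was 0.58 ± 0.15 (SE, adjusted p = 0.0390, edgeR). RPLP0 and RPLP2 did not pass the test, at 0.61 ± 0.20 (SE, adjusted p = 0.0687, edgeR) and 0.35 ± 0.18 (SE, adjusted p = 0.223, edgeR). The call of RPLP1 was lost without any one of the libraries, at log2 differences from 0.48 to 0.65 and adjusted p in edgeR from 0.0614 to 0.683. That of RPL36AL was lost likewise, at 0.43 to 0.50 and adjusted p in edgeR from 0.0543 to 0.627.

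Other genes that serve the ribosome were read out beside the members. Of 30 genes of ribosome biogenesis, 6 were called higher in melanocyte-like than in mesenchymal-like cells and 9 than in neural-like cells, with none lower and medians of 0.44 and 0.62 on the log2 scale. They were led by MYC, the transcription factor that drives ribosome production, at 2.37 ± 0.27 (SE, adjusted p = 0.00166, edgeR) and 2.58 ± 0.32 (SE, adjusted p = 0.00228, edgeR). BOP1, a factor of large subunit maturation, was higher by 0.98 ± 0.22 (SE, adjusted p = 0.0197, edgeR) and 1.11 ± 0.25 (SE, adjusted p = 0.0212, edgeR). Of 78 genes of the mitochondrial ribosome, 16 were called higher and 1 lower against mesenchymal-like cells, and 14 higher and 1 lower against neural-like cells. MRPS25, a small subunit protein of that ribosome, led the higher ones at 1.44 ± 0.14 (SE, adjusted p = 0.000860, edgeR) and 1.23 ± 0.16 (SE, adjusted p = 0.00274, edgeR), while MRPS6 was lower at -0.92 ± 0.17 (SE, adjusted p = 0.0104, edgeR) and -0.79 ± 0.19 (SE, adjusted p = 0.0289, edgeR). These shares of called genes, 20.0% and 30.0% for biogenesis and 21.8% and 19.2% for the mitochondrial ribosome, stand beside 22.6% and 22.3% of all genes called in either direction. Nearly all calls of the 2 lists were higher, and of all genes 10.3% and 9.54% were called higher. The lists were not tested against all genes or against the members. Scaled to the ribosomal protein total, 2 and 2 of the 30 biogenesis genes were called higher and none lower, and 5 and 3 of the 78 mitochondrial ribosome genes were called higher and 1 and 1 lower, where 6.40% and 5.47% of all genes were called higher and 12.8% and 14.6% lower.

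Of 17 further translation genes with a TOP tract, such as EEF1A1 and TPT1, NPM1 alone was called, higher against mesenchymal-like cells at 0.64 ± 0.18 (SE, adjusted p = 0.0462, edgeR), where 10.3% of all genes were called higher. Free RPL5 and RPL11 hold back MDM2, so that p53 rises when ribosome assembly fails, and 12 targets of p53 were therefore read out. Against mesenchymal-like cells 3 were called lower and none higher, namely the cell cycle inhibitor CDKN1A at -1.58 ± 0.19 (SE, adjusted p = 0.00209, edgeR), EDA2R at -1.02 and PHLDA3 at -0.99, where 12.3% of all genes were called lower. The median of the 12 was -0.26, with 1 above 0. Against neural-like cells CDKN1A alone was called, at -0.98 ± 0.22 (SE, adjusted p = 0.0195, edgeR), where 12.7% of all genes were called lower. RPL5 and RPL11 themselves differed between melanocyte-like and mesenchymal-like cells by 0.19 ± 0.15 (SE) and 0.20 ± 0.16 (SE) on the log2 scale, with adjusted p of 0.408 and 0.410 in edgeR. Between mesenchymal-like and neural-like cells none of these lists held a called gene in edgeR.

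Within the ribosomal protein UMIs the members were far from equal. A UMI count depends on how well an mRNA is captured and mapped and was not divided by length, so a share is not a share of protein. RPL41, a peptide of the large subunit with the shortest coding sequence, had the largest mean share over the 8 sums at 3.37%, followed by RPS19 at 2.92%, RPLP1 at 2.86%, RPS12 at 2.69% and RPS18 at 2.68%. These 5 made up 14.5% of the ribosomal protein UMIs, and the median member took 1.11%. At the low end stood the paralogs RPL10L, RPL3L, RPL39L, RPL7L1 and RPL26L1, each under 0.1%, and RPL31 at 0.0933%. Annotation names 1588 pseudogenes after 77 of the members, and how reads that fit both a gene and its pseudogenes were counted is not given, so that levels of members with many of them, such as RPL31 with 62, RPL7 with 61 and RPL21 with 133, are uncertain. RPS10 shares its locus with a readthrough row that held 117 UMIs against 500991 for RPS10. Large subunit genes had 1.26 to 1.34 times the UMIs of small subunit genes in the 8 sums, with the lowest ratio in melanocyte-like cells of D23 and the highest in mesenchymal-like cells of D44.

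The proportions among members varied little between the classes of a library and much between D23 and D32. Over the 79 members with at least 100 UMIs in every sum, the median range of a member's share was 0.12 on the log2 scale among the 3 classes of D23, 0.16 among those of D32 and 0.11 between the 2 of D44. Between melanocyte-like cells of D32 and D44 it was 0.10, and between those of D23 and D32 it was 0.40. In mesenchymal-like and neural-like cells the D23 to D32 values were 0.41 and 0.41. Between D23 and D32, 10 members changed their share by more than 1 on the log2 scale in melanocyte-like cells and 11 in each other class, and none did so among the classes of a library. The members with the widest spread of share over the sums were RPL39, RPS29, RPL38, RPS27, RPS21, RPL3, RPS28, RPL21, RPS10 and RPS4X, among those with at least 100 UMIs in every sum.

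**Figure D3:**
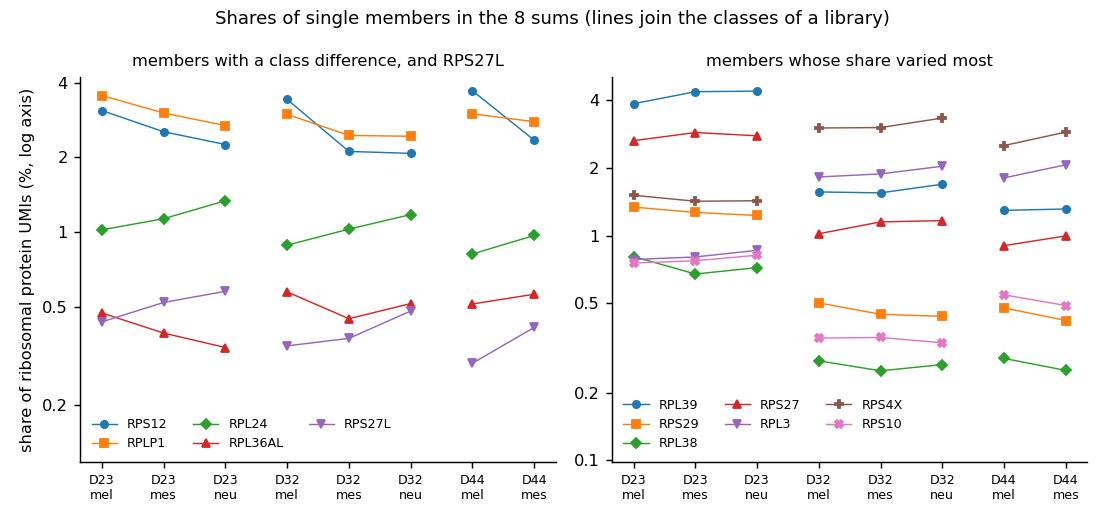
Share of the ribosomal protein UMIs (y axis, percent, log axis) of single members in the 8 sums (x axis, library and class). Lines join the classes of a library. On the left RPS12 is highest in melanocyte-like cells of each library (3.09%, 3.42% and 3.71%), and on the right the step between D23 and D32 is common to all 3 classes.

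In melanocyte-like cells the summed share of D32 minus that of D23 was -2.58 percentage points. With 1 library per day no test was possible. At a threshold of 1.5-fold, 6 of 83 members were higher and 22 were lower in D32, where 15.2% of the 8738 genes at 10 CPM or more were higher and 20.6% lower. Scaled to the ribosomal protein total, 12 were higher and 16 lower, beside 25.1% and 12.5% of all genes. Past 2-fold, on the scale of all UMIs, 1 was higher and 10 lower, beside 3.81% and 7.46% of all genes. RPL38, RPS29, RPS27, RPL39 and RPL31 had the lowest ratios. RPL38 went from 1607 to 481 CPM, a ratio of 0.299 with a Poisson interval of 0.296 to 0.302 (95%, counting error only). RPL39 went from 7700 to 2714 CPM, a ratio of 0.352. RPL3, RPL7A, RPS4X, RPS3 and RPL5 had the highest ratios. RPL3, the protein next to the peptidyl transferase centre, went from 1560 to 3164 CPM, a ratio of 2.03, and RPS4X went from 3014 to 5227 CPM, a ratio of 1.73. The members named here with low ratios encode short proteins and those named with high ratios long ones.

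This was set against coding length, the length of the coding sequence of the canonical transcript in GENCODE, after the ratios had been seen. Across the 83 members, which share the same 2 libraries and are not independent replicates, the log2 ratio of D32 over D23 and the log2 coding length had a Pearson r of 0.70 and a Spearman rho of 0.75 in melanocyte-like cells. Mesenchymal-like cells gave 0.74 and 0.81 and neural-like cells 0.69 and 0.74. For D44 over D32, r was 0.08 and rho 0.07 in melanocyte-like cells and -0.11 and -0.10 in mesenchymal-like cells. The relation was thus present between D23 and D32 in each class and not between the libraries of the same induction. The 78 mitochondrial ribosome genes gave r of 0.41 to 0.45 in the 3 classes for D32 over D23. Over all other genes r was -0.25 in melanocyte-like cells. Their median ratio was 0.904 up to 300 coding bases, 1.14 from 300 to 600 and 1.21 from 600 to 1200. It was 0.913 from 1200 to 2400 and 0.763 above 2400. The members had medians of 0.429 up to 300 bases, 0.876 from 300 to 600 and 1.17 from 600 to 1200. From 300 to 600 bases the members' median was thus below 1 and that of other genes above 1.

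The 29 members with 75 to 396 coding bases had a median ratio of 0.596 and took 8.76% of all UMIs of melanocyte-like cells in D23 and 5.18% in D32. The 28 with 405 to 576 bases had 0.929 and took 6.52% and 6.02%. The 26 with 582 to 1281 bases had 1.19 and took 4.63% and 6.12%. Short members thus took a smaller and long members a larger share in D32, which the sum over all members does not show. The 11 members of at most 300 coding bases, RPL41, RPL39, RPL39L, RPS29, RPS28, RPL38, RPS21, RPS27, RPS27L, RPL37A and RPL37, went from 4.13% to 1.81% of all UMIs. They made up 20.7% to 22.1% of the ribosomal protein UMIs in the classes of D23 and 10.1% to 11.2% in those of D32 and D44. Without them the difference of the other members between D32 and D23 was -0.262 points in melanocyte-like cells, an alternative chosen after seeing the data. In mesenchymal-like cells the other members still went from 15.8% to 14.8% of all UMIs, and in neural-like cells from 16.3% to 13.2%. RPL39L, of the same coding length as RPL39, did not follow them, with a ratio of 1.15. RPS10, with a ratio of 0.404, and RPL21, which went from 1757 to 736 CPM in melanocyte-like cells, are longer than the 11 members. Whether the day, the culture stage, the induction or the making of the libraries goes with this pattern cannot be told apart.

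**Figure D4:**
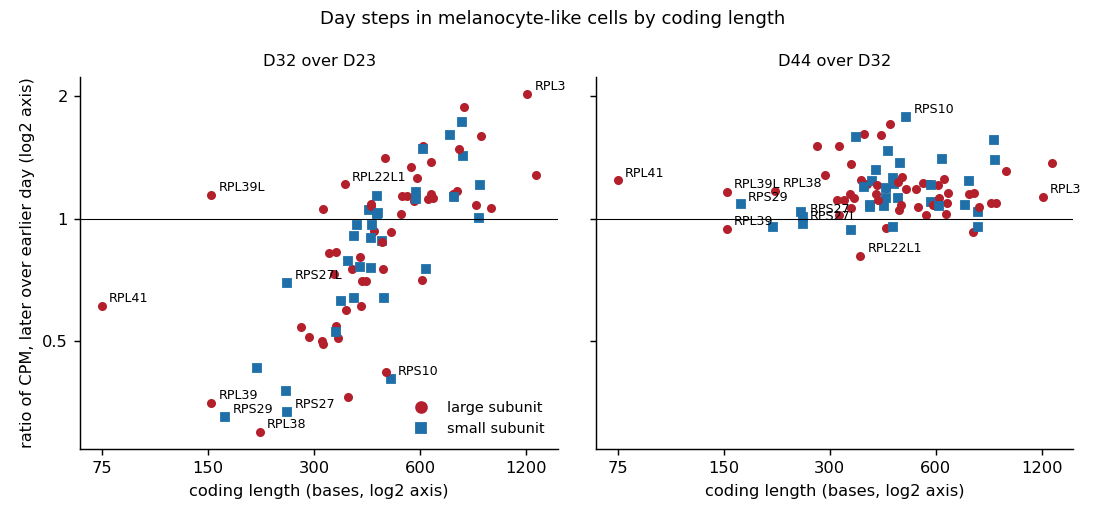
Ratio of CPM of the later over the earlier library (y axis, log2 axis) in melanocyte-like cells against coding length in bases (x axis, log2 axis), for D32 over D23 (left) and D44 over D32 (right). Circles are the tested members of the large subunit and squares those of the small subunit. On the left the ratios climb from 0.299 for RPL38 to 2.03 for RPL3, and on the right they lie between 0.811 and 1.78 with no such slope.

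Within the shared induction and batch, the share was 2.48 points higher in D44 than in D32 in melanocyte-like cells and 0.464 points higher in mesenchymal-like cells, the latter from 18 cells in D44. Of the 83 members 74 had a ratio above 1 in melanocyte-like cells, with a median of 1.15. Of all 8251 genes 3824 had a ratio above 1, with a median of 0.985. At 1.5-fold 8 members were higher and none lower, where 2.18% of all genes were higher and 2.33% lower, and none was past 2-fold in either direction, where 0.654% were higher and 0.812% lower. RPS10 led them, from 607 to 1081 CPM and a ratio of 1.78 with an interval of 1.77 to 1.79 (counting error only). RPL27A (1.71), RPL31 (1.62), RPL23 (1.61) and RPS20 (1.59) followed, which are proteins of both subunits. Scaled to the ribosomal protein total RPS10 alone was past 1.5-fold, at 1.56, where 1.15% of all genes were higher and 6.45% lower. In mesenchymal-like cells RPS10 went from 581 to 829 CPM, a ratio of 1.43. The lowest ratios belonged to RPL22L1 (0.811), RPL7L1 (0.929), RPS26 (0.937), RPL39 (0.947) and RPL26L1 (0.948), of which 3 are paralogs. RPS10 also had one of the lowest ratios of D32 over D23 and stood at 1505, 607 and 1081 CPM over the 3 libraries. Of the other lists, the mitochondrial ribosome had a median ratio of 0.959, the further TOP translation genes 0.994 and the biogenesis genes 1.02 in this step. The p53 targets had a median of 1.19, with 8 of 10 above 1 and 3 past 1.5-fold, so a higher level in D44 was not particular to the members.

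The paralogs ranged from levels near those of the genes they are named after to none or nearly none. RPL22L1, the copy of RPL22 that is held down by RPL22 protein, stood at 665, 810 and 657 CPM in melanocyte-like cells, at 576, 592 and 557 in mesenchymal-like cells and at 587 and 490 in neural-like cells. Its CPM was the highest in melanocyte-like cells of each library. Of the UMIs of the pair it took 33.2%, 44.5% and 34.8% there, 31.0%, 37.8% and 37.6% in mesenchymal-like cells and 30.3% and 35.8% in neural-like cells, so that in D44 its part of the pair was lower in melanocyte-like cells. Its log2 differences of 0.39 ± 0.16 (SE) and 0.58 ± 0.19 (SE) did not pass the test, with adjusted p of 0.134 and 0.0734 in edgeR. RPL36AL, a copy of RPL36A, stood at 938, 993 and 1015 CPM in melanocyte-like cells. It stood at 788, 737 and 951 CPM in mesenchymal-like cells and at 718 and 765 CPM in neural-like cells. It took from 34.0% to 65.7% of its pair, with 47.1% in melanocyte-like cells of D23 and 65.7% in those of D32, as RPL36A itself went from 1054 to 517 CPM and back to 782 in D44. Its log2 difference against neural-like cells was 0.49 ± 0.14 (SE, adjusted p = 0.0431, edgeR), and 0.35 ± 0.12 (SE, adjusted p = 0.0745, edgeR) against mesenchymal-like cells. Relative to the ribosomal protein total it was 0.23 ± 0.18 (SE) with an adjusted p of 0.422 in edgeR against neural-like cells.

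RPS27L, a copy of RPS27 that p53 induces, went the other way. It took 0.434%, 0.347% and 0.296% of the ribosomal protein UMIs in melanocyte-like cells, 0.520%, 0.372% and 0.412% in mesenchymal-like cells and 0.577% and 0.480% in neural-like cells. Melanocyte-like cells were the lowest of each library, at a log2 difference of -0.49 ± 0.15 (SE) against neural-like cells that did not pass the test (adjusted p = 0.0588, edgeR). Of the pair with RPS27 it made up 14.1% to 17.2% in the classes of D23 and 24.4% to 29.2% in those of D32 and D44, as RPS27 went from 5274 to 1769 CPM in melanocyte-like cells. RPL26L1 kept 4.16% to 5.33% of its pair with RPL26 in the 8 sums and RPL7L1, a factor of ribosome assembly rather than a part of the ribosome, 8.78% to 15.4% of that with RPL7. RPL39L, a copy best known from the testis, stood at 12.9 to 21.2 CPM and was 0.181% to 0.819% of its pair.

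RPL3L, the copy of muscle and heart, held 35 UMIs in all 8 sums and RPL10L, the copy of the testis, held 1. RPL3L had 0 UMIs in 4 of the 8 sums, among them melanocyte-like cells of D23, where a count of 0 allows up to 0.00601% of the pair with RPL3, and 5 UMIs in neural-like cells of D23. RPS4X, the X-linked gene of a small subunit protein, has no copy among the members. It stood at 3014, 5227 and 4992 CPM in melanocyte-like cells, 2868, 4996 and 4905 in mesenchymal-like cells and 3005 and 4971 in neural-like cells, so that it differed between D23 and the later libraries and hardly among the classes of a library. None of the paralogs was called on the scale of the ribosomal protein total in edgeR.

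**Figure D5:**
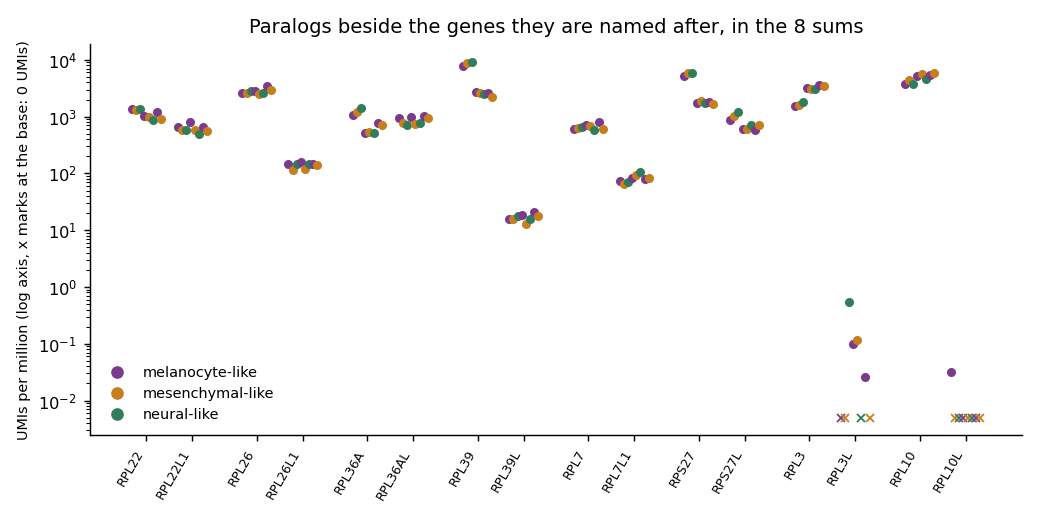
CPM (y axis, log axis) of 8 paralogs and the genes they are named after (x axis) in the 8 sums, in the order D23, D32 and D44 within each gene and coloured by class, with x marks at the base for 0 UMIs. RPL36AL lies on either side of RPL36A, RPL22L1 lies below RPL22, and RPL3L and RPL10L are at or near 0.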

How the data were processed

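For each library the authors deposited a matrix of raw UMI counts (genes by barcodes), which per the submitters' processing notes came from Cell Ranger 6.1.2 with build hg38. The annotation release and the tagged end of the transcript are not given in the sources used here. The study's limits were applied: over 1000 and under 7000 genes and under 50000 UMIs in D23, over 3000 and under 9000 genes and under 100000 UMIs in D32 and D44, over 500 UMIs and under 10% mitochondrial UMIs in each. This left 49846673, 241341185 and 266709913 UMIs. Scrublet in Scanpy 1.11.5 (Python 3.11.15, 30 components) scored doublets, and the highest scores up to an expected rate of 0.8% per 1000 barcodes were called. Melanocyte-like cells had at least 10 melanocyte and fewer of the other marker UMIs per 10000. The other classes had fewer melanocyte marker UMIs and took the larger score, and the rest stayed unnamed.

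Counts were summed over classes of at least 10 cells and compared with edgeR 4.0.16 (filterByExpr, quasi-likelihood test, library as a block, all sums in 1 fit, R 4.3.3). The code was tried on simulated counts with a common mean profile, a common spread and no difference between libraries beyond depth. That trial does not measure how reliable the calls reported here are. Log2 differences are positive where melanocyte-like cells, or mesenchymal-like against neural-like, were higher. Libraries, which are days from 2 inductions, stood as replicates. DESeq2 1.42.0 and the other alternatives are given in the closing section. Class shares were compared by exact sign-flip permutation. Day steps had no test and used genes with 10 CPM in either library. Positions and coding lengths are from GENCODE 44, found for all 85 members, and starts are from RefSeq. Members, lists and tests were chosen with earlier results of these data known. Members were named by fixed rules: all paralogs and RPS4X, members called between classes, the 5 highest and lowest per day step and in mean share, and the 10 with the widest spread of share; RPLP0, RPLP2, RPL5, RPL11, RPL28 and the members of at most 300 coding bases were added after their values were seen. Results on 2 further short gene lists are not reported here.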

Additional observations from a re-analysis of the deposited data

Results flagged for a closer look

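The difference in the share of ribosomal protein UMIs between classes changed sign between libraries. Melanocyte-like minus mesenchymal-like cells gave -0.231 percentage points in D23, 0.837 in D32 and 2.86 in D44. Melanocyte-like minus neural-like cells gave -1.09 in D23 and 2.45 in D32, and mesenchymal-like minus neural-like cells gave -0.858 in D23 and 1.61 in D32. The change between libraries was not tested, since each library gives 1 value per class, and the values of D23 turned positive under the stricter gate. Barcodes left out only for few genes took no part in the main comparisons. Some of those of D32 and D44 entered under the setting with 1 cell filter for all libraries. Their median share of ribosomal protein UMIs was 21.5% in D32 and 24.5% in D44, above the medians of 17.1% and 19.8% of the kept cells, and 5.98% in D23, below the median of 20.1% there.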

How the results depend on the processing

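Of 275 values under other settings, 170 kept their direction and their side of the threshold or stayed within their error or within 1.5 times, 72 moved, 30 lost their call and 3 reversed. The reversed values are the class differences of D23 under the stricter gate: 0.504 (melanocyte-like minus mesenchymal-like), 1.76 (melanocyte-like minus neural-like) and 1.26 points (mesenchymal-like minus neural-like). Causes were not tested. Members called higher against mesenchymal-like and neural-like cells were 1 and 3, but 5 and 5 in DESeq2, 0 and 0 with no replicate block, and 0 and 8 under the stricter gate. They were 2 against mesenchymal-like cells with total UMIs and 3 with no filter on low counts, and 0 to 1 in each comparison when 1 library was left out. Mesenchymal-like against neural-like cells gave 2 under the stricter gate. Relative to the ribosomal protein total, 1 was higher against mesenchymal-like cells, but 0 with no replicate block, 0 under the stricter gate and 0 to 1 without 1 library. Against neural-like cells 1 was higher and 1 lower, but 2 and 2 in DESeq2, 2 and 2 when thinned to 5000 UMIs, 0 and 0 with no replicate block, 0 to 1 and 0 to 0 without 1 library, and 0 lower without a filter or under the stricter gate. Pairing by library is part of the design, as the sums of one day were taken from one set of droplets, and fits with no replicate block leave it out. In melanocyte-like cells the difference of D32 minus D23 was -2.58 points, and -2.78 thinned, -2.56 under 1 cell filter, -2.64 without doublets, -2.92 under the stricter gate and -0.262 without members of at most 300 coding bases. That of D44 minus D32 was 2.48, and 2.56 without mitochondrial UMIs, 2.62 thinned, 2.47 under 1 filter, 2.52 without doublets, 2.49 under the stricter gate and 2.28 without those members. Past 2-fold in place of 1.5-fold, 1 member was higher (3.81% of all genes) and 10 lower (7.46%) in D32 than in D23, and 0 were higher in D44 than in D32 (0.654%). Past 1.5-fold and scaled to the ribosomal protein total, 12 were higher and 16 lower in D32 and 1 was higher in D44. The stricter gate left too few mesenchymal-like cells in D44 for a sum. Depth limits the sums of D44 with few cells and the paralogs near 0.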
